A study of Mus musculus with 10 samples.

Results

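The genes that make, hold, release, receive and brake transforming growth factor beta (TGF-beta) were followed through the cell types of mouse liver that carried colorectal cancer (CRC) metastases. They are 8 of the 32285 genes in the matrices: the ligand gene Tgfb1, the display gene Lrrc32, the activation gene Itgb8, the receptor genes Tgfbr1 and Tgfbr2, the brakes Smad7 and Ski, and the target Tgfbi. The list was drawn up by role, and Lrrc32 was on it because its level in regulatory T cells of the combination liver had already been seen to be high. All values of the combination liver against the others in regulatory T cells are therefore given as a description, with no test.

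TGF-beta1 leaves the cell folded inside its own propeptide and cannot bind its receptor in that form. On regulatory T cells and platelets the protein encoded by Lrrc32, called GARP, tethers this latent form to the surface, and integrin alphav-beta8, whose beta chain is encoded by Itgb8, pulls it open. The free ligand binds the receptor encoded by Tgfbr2, which phosphorylates the one encoded by Tgfbr1, and Smad proteins then carry the signal to the nucleus, where it limits lymphocyte activation and drives matrix genes.

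Each library held cells of 1 liver, freed by collagenase, Dispase II and DNase and sorted as viable single cells by exclusion of 7AAD, with no antibody. Control livers 11 and 25 came from mice given a control LV (lentiviral vector), IFNa livers 18 and 23 from mice given an interferon-alpha LV, and liver 22 from a mouse given IFNa in combination with a-CTLA-4, an antibody to the inhibitory T cell receptor CTLA-4, referred to below as the combination. Mouse strain, age, tumour line, vector promoter, dose and times, and whether each liver is a different mouse, are not given in the sources used here, so a p-value speaks only of how these libraries scatter, which can be technical scatter. The combination has 1 library, and its tests assume that it would vary like the other 2 groups.

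The matrices held 863 to 9605 barcodes and 10464216 to 69856071 unique molecular identifiers (UMIs, each 1 counted RNA molecule) per library, the lowest in Control 25. After doublet removal 26229 cells were left, and 387 barcodes occurred in more than 1 library (2.46% to 4.71% of a library's cells). Cells were placed in classes by gates on marker genes; 16 classes had at least 10 cells in at least 4 libraries. In the combination library 2985 cells fell in no class, with a median of 1697 UMIs against 5370 to 8572 in the unplaced cells of the other libraries, and they entered no comparison.

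Promoter sequences were at hand for 6 of the 8 genes, in RefSeq windows on GRCm38.p6. Those of Tgfbi and Tgfb1 are shown, each as the 250 bases before the annotated start, because the treatments delivered an interferon and Tgfbi was the 1 gene of the 6 whose window held an interferon-type element. The element searched, on both strands, was GAAA followed by any 2 bases and GAAA again, the core of the interferon-stimulated response element, and it is in capitals.
Tgfbi, chr13:56609336-56609585, plus strand: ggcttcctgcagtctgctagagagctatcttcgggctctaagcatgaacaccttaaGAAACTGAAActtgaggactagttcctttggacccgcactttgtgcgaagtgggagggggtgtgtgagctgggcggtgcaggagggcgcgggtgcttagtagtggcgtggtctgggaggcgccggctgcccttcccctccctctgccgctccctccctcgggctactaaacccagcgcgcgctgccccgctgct
Tgfb1, chr7:25686752-25687001, plus strand: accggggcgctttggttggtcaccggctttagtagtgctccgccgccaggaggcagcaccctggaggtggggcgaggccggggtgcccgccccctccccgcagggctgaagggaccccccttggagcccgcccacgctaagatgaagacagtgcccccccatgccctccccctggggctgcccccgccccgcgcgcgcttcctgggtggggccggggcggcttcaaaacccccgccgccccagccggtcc
Of 32851 windows of the same length, 2.98% held that element. The Smad-binding letters CAGAC, searched on both strands, occurred 2 times in the Tgfbi window, outside the element, and 0 times in the Tgfb1 window, against 42.2% of all windows with at least 1 match on either strand. The Tgfb1 window held 21 CpG pairs and the Tgfbi window 15, where the median window held 6. These matches describe letters in a window and not bound sites.

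The 8 genes divided the liver's cells between them. Levels are given as CPM, the UMIs of a gene scaled to a fixed total of all UMIs of the class in a library. Lrrc32 and Itgb8 had their highest means in regulatory T cells, Tgfb1 in monocytes and macrophages, Tgfbr1 and Tgfbi in macrophages, Tgfbr2 and Smad7 in T cells, and Ski in neutrophils. The heat map of mean levels shows these blocks.

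**Figure D1:**
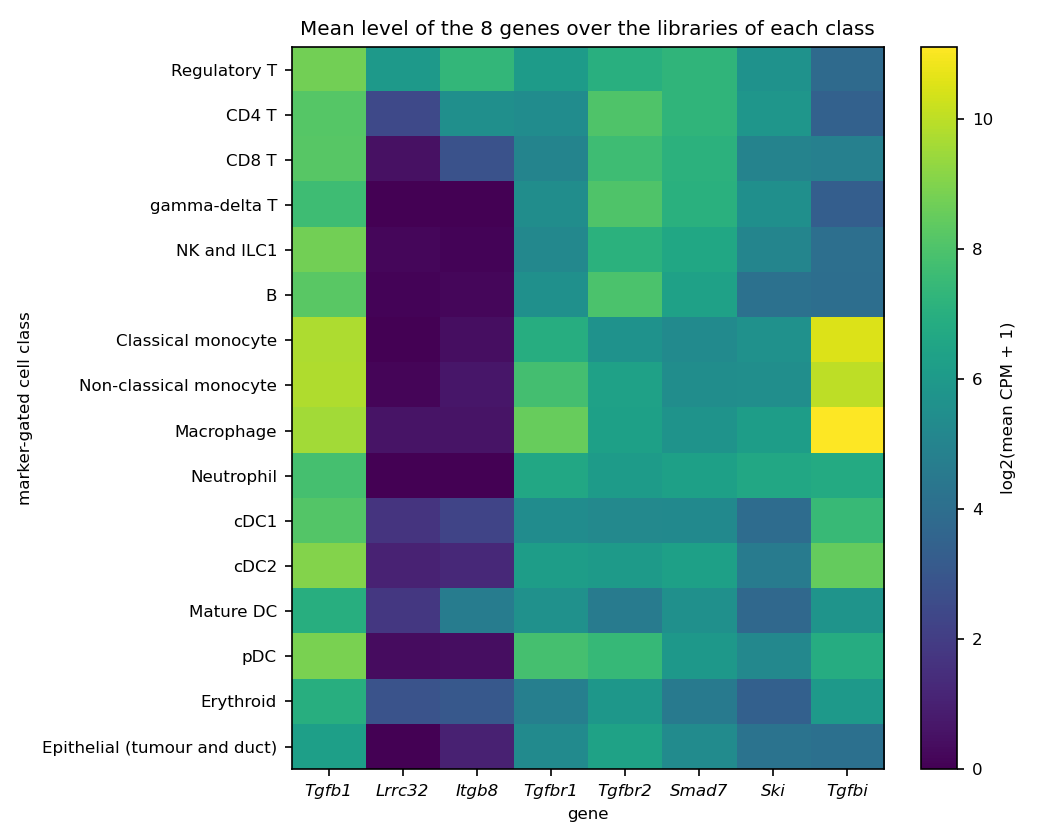
Mean level of each of the 8 genes (columns) in each of the 16 marker-gated classes (rows), as log2 of the mean CPM over the 4 or 5 libraries of the class plus 1. Lrrc32 and Itgb8 are bright in regulatory T cells and dark in most other classes, whereas Tgfb1 is present in all 16.

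Tgfb1, the ligand gene, was read in every class. Its mean over libraries was 881 CPM in non-classical monocytes (628 to 1006), 859 CPM in classical monocytes (623 to 1022) and 752 CPM in macrophages (502 to 1068), 3 classes whose ranges overlapped. It was 426 CPM in regulatory T cells (346 to 539), 291 CPM in CD4 T cells (227 to 353) and 76.6 CPM in epithelial cells (68.8 to 88.7), the lowest of the 16. The 3 genes whose class means followed it most closely over the 16 classes were Zfp993 (Pearson r = 0.92), Ctsa (0.91) and Lrpap1 (0.90), a description over classes that share libraries.

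Lrrc32, the display gene, was read mainly in regulatory T cells. Its mean there was 60.8 CPM (33.8 to 144), against 4.52 CPM in CD4 T cells without a Foxp3 UMI (0.742 to 6.13) and 0.422 CPM in CD8 T cells (0 to 1.09). The erythroid mean of 6.15 CPM came from 1 UMI in the 24 erythroid cells of the combination library, with the other libraries at 0. No Lrrc32 UMI was read in classical monocytes, neutrophils, epithelial cells or gamma-delta T cells of any library with at least 10 such cells. The genes most like it over classes were Ky (r = 0.96), Gm13522 (0.95) and Il1rl1 (0.95), the last encoding the interleukin 33 receptor of tissue regulatory T cells.

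Itgb8, whose product opens the latent complex, had a mean of 164 CPM in regulatory T cells (132 to 195) and 44.7 CPM in CD4 T cells (27.7 to 58.5), ranges that did not overlap. In mature dendritic cells it ran from 0 to 99.9 CPM, with the highest value in 1 Control library. In monocytes, macrophages, neutrophils, NK and ILC1 cells and B cells its means were at most 0.591 CPM. Its closest genes over classes were Neb (r = 0.97), Gm4858 (0.97) and Ccn4 (0.96).

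The receptor genes had their highest means in different lineages. Tgfbr1 had its highest mean in macrophages, 364 CPM (224 to 484), followed by plasmacytoid dendritic cells (pDC) at 226 CPM (179 to 280) and non-classical monocytes at 217 CPM (153 to 270), 3 overlapping ranges. In CD8 T cells it was 31.5 CPM (24.6 to 38.4). Tgfbr2 had 263 CPM in CD4 T cells (216 to 315), 262 CPM in gamma-delta T cells (161 to 454) and 245 CPM in B cells (232 to 268). It had 198 CPM in CD8 T cells (165 to 241). Macrophages had 78.8 CPM of it (56.1 to 91.0) and classical monocytes 50.2 CPM (40.7 to 60.9). The pDC were high for both receptor genes, with Tgfbr2 from 133 to 202 CPM.

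Smad7 encodes an inhibitory Smad that the pathway itself induces. Its means were 154 CPM in regulatory T cells (138 to 203), 152 CPM in CD4 T cells (104 to 205) and 140 CPM in CD8 T cells (113 to 182), 3 overlapping ranges, and 39.0 CPM in classical monocytes (20.8 to 54.1). Ski encodes a corepressor of Smad target genes; its means were 99.0 CPM in neutrophils (52.9 to 129), 70.4 CPM in macrophages (43.5 to 92.9), 55.3 CPM in CD4 T cells (44.5 to 64.3) and 49.4 CPM in regulatory T cells (39.4 to 67.7), with overlap between neighbours in that order. Tgfbi encodes a matrix protein named for its induction by TGF-beta. It reached 2195 CPM in macrophages (1646 to 2601) and 1482 CPM in classical monocytes (1217 to 1854), and its closest genes over classes were Fcgr1 (r = 0.99), Csf1r (0.97) and Lrp1 (0.97), the first a high-affinity Fc receptor and the second the growth factor receptor of macrophages.

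In regulatory T cells the combination liver held the most Lrrc32 RNA. The gate asked for a Foxp3 UMI and a Cd4 UMI with no Cd8a or Cd8b1 UMI, and took 133 and 24 cells from Control livers 11 and 25, 103 and 104 from IFNa livers 18 and 23, and 121 from the combination. The Lrrc32 level was 33.8 and 42.5 CPM in the Control livers and 40.5 and 43.0 CPM in the IFNa livers, from 33, 13, 37 and 50 UMIs. It was 144 CPM in the combination liver, from 176 UMIs (95% exact Poisson interval 124 to 167 CPM; this interval and the others cover counting error only). The 4 other livers had overlapping groups, and the combination liver was 3.61 times their mean. Over all genes tested in this class, 15.4% had the combination above all 4 other libraries, a share that says nothing further about a gene chosen for that pattern.

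More cells carried the RNA, and more of it per cell. At least 1 Lrrc32 UMI was found in 18.05% and 33.3% of Control cells, 21.4% and 29.8% of IFNa cells and 50.4% of combination cells, at median depths of 6012, 8338, 6649, 7810 and 8306 UMIs. With every cell thinned to 3000 UMIs, which left out 10, 0, 5, 3 and 3 cells, the shares were 8.94% and 16.7% for the Control livers, 12.2% and 11.9% for the IFNa livers and 30.5% for the combination (95% exact binomial interval 22.4% to 39.7%). In B cells, which should lack the gene, the thinned share was 0% in 4 libraries and 0.102% in the combination. Cells with 4 or more Lrrc32 UMIs numbered 0 and 0 in the Control livers, 2 and 3 in the IFNa livers and 18 in the combination, where 1 cell held 10.

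The Lrrc32 cells of the combination liver were not of a few clones. Of its Lrrc32-positive regulatory T cells 55 had a T cell receptor beta chain, and they belonged to 53 clonotypes, the largest with 2 cells. In IFNa livers 18 and 23 the corresponding cells were 19 in 11 clonotypes and 28 in 21 clonotypes, with up to 5 cells each. Across the whole gate, cells whose beta clonotype was seen more than once numbered 51 of 118 and 6 of 21 for Control, 48 of 88 and 50 of 93 for IFNa, and 17 of 111 for the combination. Within the combination the level was 148 CPM in single clonotypes and 97.1 CPM in repeated ones.

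How the cells were defined moved the level and not its place in the order. With a Foxp3 UMI as the only requirement the combination read 95.4 CPM and the others 19.9 to 26.3 CPM, and with 2 or more Foxp3 UMIs it read 144 CPM and the others 32.9 to 43.9 CPM. In cells with neither a Mki67 nor a Top2a UMI, genes of dividing cells, the combination read 155 CPM and the others 46.1 to 70.7 CPM. Cycling cells, those with such a UMI, made up 38.3% and 62.5% of the Control gates, 47.6% and 51.9% of the IFNa gates and 43.0% of the combination gate. The plot of Lrrc32 by gate sets these side by side.

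**Figure D2:**
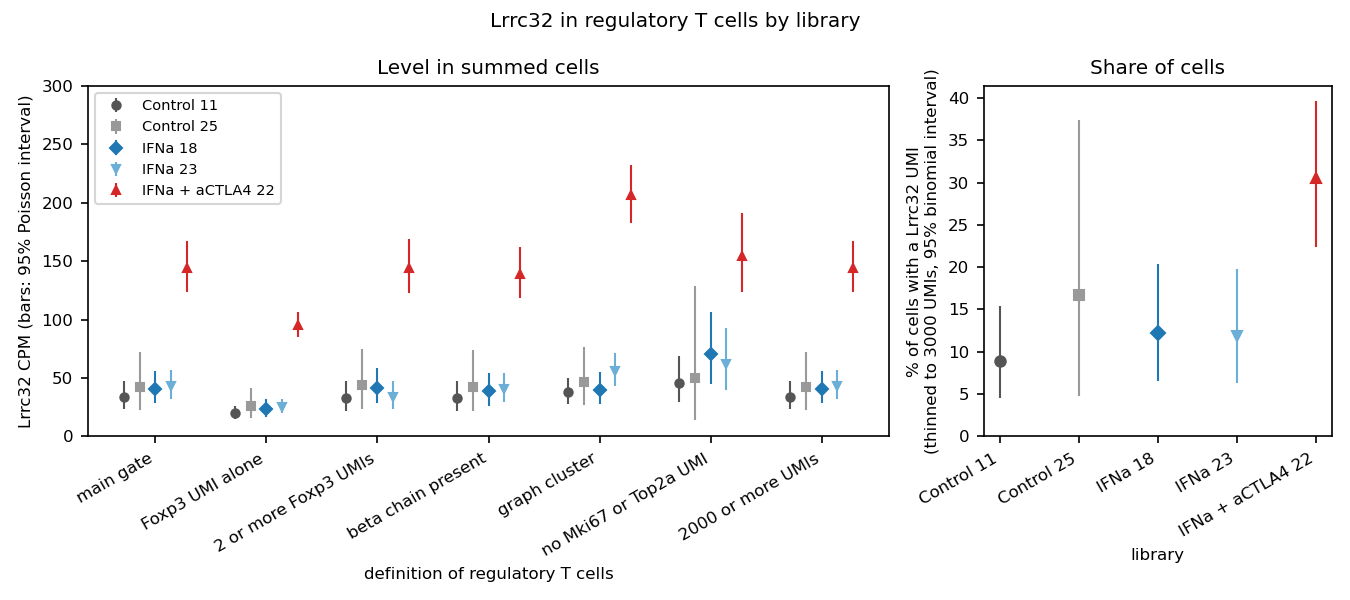
Left, Lrrc32 CPM in regulatory T cells of each library under 7 definitions of the cells, with 95% Poisson intervals; right, the share of gated cells with a Lrrc32 UMI after thinning to 3000 UMIs, with 95% binomial intervals. The combination liver (red) lies above the other 4 under each definition, at 144 CPM in the main gate and 30.5% of cells.

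Markers of other cells that bear GARP, and of myeloid cells, were read in the same gate. Of 6 megakaryocyte and platelet markers all were at 0 in 4 libraries and 5 in IFNa 23. Of 8 endothelial markers 5 or 6 were at 0, and their summed level ran from 62.8 to 98.4 CPM with 90.2 CPM in the combination. Macrophage markers summed to 0.820 CPM in the combination and to 0 to 22.4 CPM elsewhere, whereas classical monocyte markers summed to 382 CPM in the combination and to 144 to 335 CPM elsewhere; their part in the Lrrc32 value was not tested, and classical monocytes themselves held no Lrrc32 UMI in any library. CD4 T cells without Foxp3 had their lowest Lrrc32 value in the combination, 0.742 CPM from 3 UMIs, against 3.82 to 6.13 CPM.

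The ligand and the opener did not share the pattern of Lrrc32 in these cells. Tgfb1 read 366 and 539 CPM in Control, 372 and 346 CPM in IFNa and 508 CPM in the combination, which lay inside the Control range. Itgb8 read 195 and 144 CPM in Control, 169 and 181 CPM in IFNa and 132 CPM in the combination, the lowest of the 5. Cells with both a Lrrc32 and a Tgfb1 UMI numbered 16 of 133 and 8 of 24 for Control. They numbered 19 of 103 and 30 of 104 for IFNa and 57 of 121 for the combination. Cells with both a Lrrc32 and an Itgb8 UMI were 10, 3, 12, 21 and 33 in the same order. These counts rise with the number of Lrrc32-positive cells and were not thinned. They restate the Lrrc32 share and say nothing further about joint expression.

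Of the receptors and brakes in regulatory T cells, Tgfbr1 was highest in the combination and the others were not. Tgfbr1 read 59.5 and 49.0 CPM in Control, 64.5 and 65.3 CPM in IFNa and 94.3 CPM in the combination. Tgfbr2 read 140 and 180 CPM in Control, 108 and 93.7 CPM in IFNa and 108 CPM in the combination, so that both Control livers were above the other 3. Smad7 (138 to 203 CPM) and Ski (39.4 to 67.7 CPM) had the combination inside the range of the others. Tgfbi was low, from 1.09 to 29.7 CPM, and uneven between libraries of the same group.

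**Figure D3:**
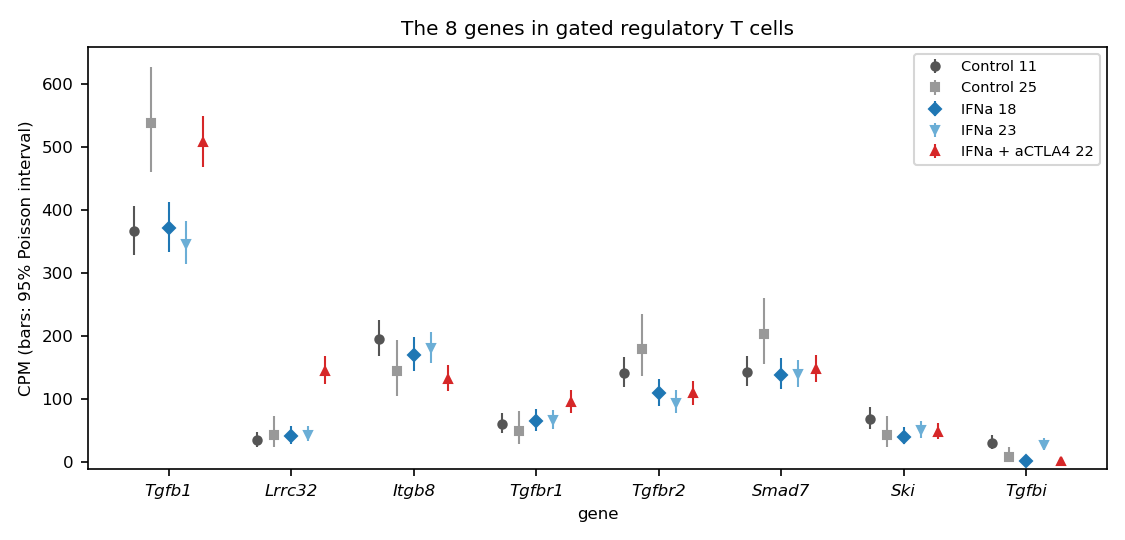
CPM of the 8 genes in gated regulatory T cells of each library, with 95% Poisson intervals. Lrrc32 and Tgfbr1 are highest in the combination liver, at 144 and 94.3 CPM, and Itgb8 is lowest there, at 132 CPM.

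Interferon alone left the 8 genes of regulatory T cells without a called change. On simulated counts with known changes, this fit recovered 24.7% of 2-fold and 80.1% of 4-fold changes in these cells. Most 2-fold changes would therefore be missed. The Lrrc32 difference between the IFNa and Control livers was 0.20 ± 0.26 on the log2 scale (± SE; edgeR quasi-likelihood test, Benjamini-Hochberg adjusted p = 0.945), and it was -0.0085 without Control 11. Tgfbr2 differed by -0.63 ± 0.22 (adjusted p = 0.676). None of 31 other genes of the pathway in these cells was called either, with 3 at an unadjusted p under 0.05, where 0.0931% of all genes in the class were called and 5.97% had such an unadjusted p.

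Other activation genes of regulatory T cells, a list of 23, went in both directions in the combination liver. It lay above all 4 other livers for 9 and below all 4 for 7, where 15.4% and 19.8% of all genes tested did so, and the median log2 ratio to the Control mean was -0.02. Il10, the gene of an anti-inflammatory cytokine, read 72.8 and 29.4 CPM in Control, 54.7 and 81.7 CPM in IFNa and 6.56 CPM in the combination. Klrg1, a marker of terminal effector cells, read 617 and 451 CPM, 489 and 397 CPM, and 171 CPM in the same order. Itgae, encoding the TGF-beta-inducible integrin CD103, read 396 and 258 CPM, 237 and 322 CPM, and 133 CPM. Il1rl1 read 172 and 114 CPM, 106 and 55.0 CPM, and 59.0 CPM, so the combination lay between the IFNa livers. On the other side Gzmb, encoding granzyme B, read 569 and 209 CPM, 453 and 542 CPM, and 776 CPM, and Tnfrsf4, encoding OX40, read 1359 and 938 CPM, 1508 and 1565 CPM, and 1933 CPM. These 6 had the largest differences from Control, so they were picked by the values shown.

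Across all classes the first question was what IFNa alone did. Of 96 pairs of a gene and a class tested, regulatory T cells included, 0 passed an adjusted p of 0.05 in edgeR and 0 in DESeq2, where 2.17% of all gene and class pairs passed in edgeR. At an unadjusted p under 0.05 there were 20 of the 96, where 10.2% of all pairs were. The lowest adjusted p was 0.0706, for Tgfbr1 in conventional type 2 dendritic cells (cDC2). There it read 59.5 and 60.5 CPM in Control and 91.5 and 110 CPM in IFNa, groups that did not overlap, a difference of 0.74 ± 0.19 (SE). Its adjusted p was 0.0384 without Control 25, 0.0251 with no filter on low counts, 0.702 without IFNa 23 and 1.00 in DESeq2, and with stricter gates the difference was 0.39 ± 0.25 (adjusted p = 0.729). In classical monocytes Tgfbr1 read 114 and 109 CPM in Control and 133 and 178 CPM in IFNa, a difference of 0.52 ± 0.16 (adjusted p = 0.0949). The difference was 0.73 without IFNa 18 (adjusted p = 0.0266), 0.27 without IFNa 23 (adjusted p = 0.451) and 0.21 with graph clusters in place of gates (adjusted p = 0.522).

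Tgfbi, whose promoter window is printed above, read 1945 and 1646 CPM in Control macrophages and 2426 and 2601 CPM in IFNa macrophages, with 2359 CPM in the combination. Both IFNa livers were above both Control livers, and the difference of 0.39 ± 0.14 did not pass (adjusted p = 0.205). The other classes rich in Tgfbi did not show this order. Classical monocytes read 1626 and 1384 CPM in Control and 1329 and 1854 CPM in IFNa, and cDC2 read 394 and 379 CPM in Control and 423 and 331 CPM in IFNa. Non-classical monocytes read 1259 and 1102 CPM in Control and 944 and 1143 CPM in IFNa, and cDC1 read 220 CPM in Control 11 and 175 and 168 CPM in IFNa. Over the 15 classes tested the difference was positive in 9 and negative in 6, with 0 called. The larger positive ones included CD4 T, CD8 T and NK and ILC1 cells, where Tgfbi was low and IFNa 23 held the most of it, 29.6, 74.8 and 45.2 CPM. Tgfbr2 in gamma-delta T cells differed by -1.24 ± 0.44 (adjusted p = 0.0909) with 1 Control library in that class. A test of whether the IFNa effect differed between each class and classical monocytes called 0 of 120 pairs in edgeR, the 1 tool run for it, with 15 at an unadjusted p under 0.05, where 0.377% of all pairs were called and 8.19% had such an unadjusted p.

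In the combination liver 4 of the 8 genes, Tgfb1, Tgfbr1, Smad7 and Ski, were lowest of the 5 livers in most of 6 myeloid and pDC classes. Over classical and non-classical monocytes, macrophages, cDC2, neutrophils and pDC, 36 gene and class pairs passed the filter on low counts, Lrrc32 and Itgb8 in no class, and the combination lay below all 4 other libraries in 29 of them and above all 4 in 0. The share over all genes in these classes was 29.6% below and 20.1% above. Tgfbr1 and Smad7 were lowest in 6 of 6 classes, Tgfb1 and Ski in 5 of 6, Tgfbi in 4 of 6 and Tgfbr2 in 3 of 6. In neutrophils the combination had 14 cells, with 3 UMIs of Tgfbr1, 4 of Smad7 and 5 each of Ski and Tgfbi. IFNa 23 had 4 Smad7 UMIs too, and its Poisson intervals overlapped those of the combination for these genes. With TMM scaling the counts were 28 of 36 for the genes, with Tgfbi at 3 of 6, and the shares over all genes were 25.3% below and 24.4% above. In mature dendritic cells, a seventh class with 5 libraries, the combination lay below all 4 others in 3 of 7 pairs (Tgfbr1, Tgfbr2 and Smad7) and above in 0, where 23.7% of all genes were below and 19.7% above, and Tgfb1, Ski, Tgfbi and Itgb8 lay inside the range. With that class the count was 32 of 43, and 31 of 43 with TMM scaling. Epithelial cells, with 19 in the combination, went both ways on both scales. The combination lay above all 4 others for Smad7 (51.3 CPM from 10 UMIs) and Tgfbr2 (123 CPM from 24 UMIs). It lay below all 4 for Tgfbr1 (25.6 CPM from 5 UMIs) and Tgfbi (0 UMIs). The pairs share 5 libraries and few genes, so they are not independent observations.

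**Figure D4:**
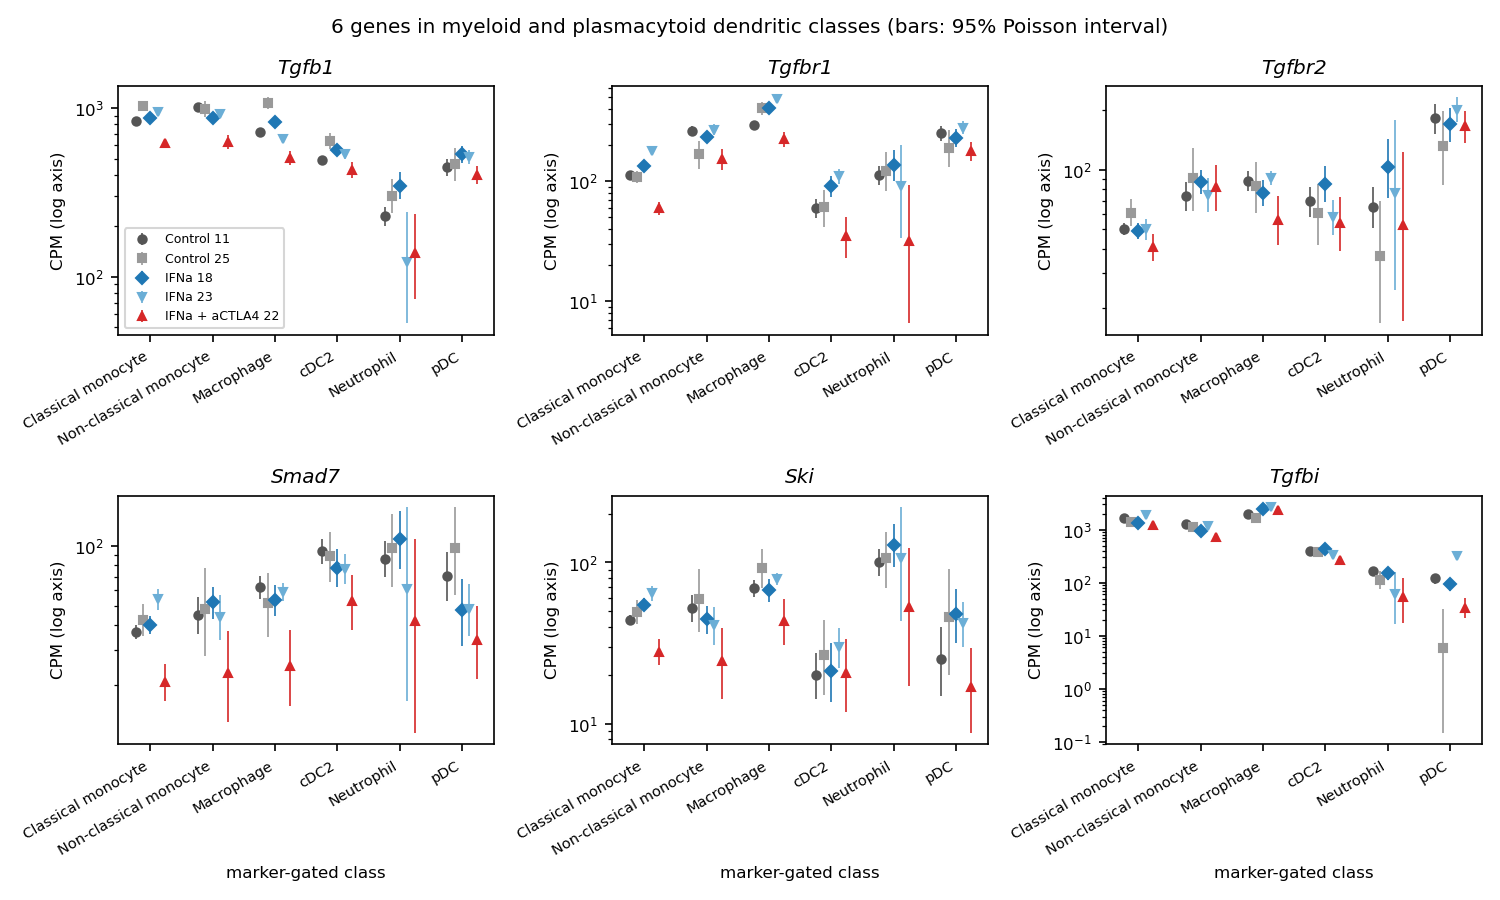
CPM on a log axis of 6 genes in 6 myeloid and pDC classes, 1 point per library with its 95% Poisson interval. The combination liver (red triangles) is the lowest point for Tgfbr1 and Smad7 in all 6 classes shown. In neutrophils its points rest on 3 and 4 UMIs of these genes from 14 cells.

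Fewer of these differences passed the tests. Of 88 pairs outside regulatory T cells, 2 were past the threshold in the combination against Control, both lower, where 2.97% of all pairs were called. Smad7 in macrophages read 62.5 and 51.6 CPM in Control, 53.7 and 59.0 CPM in IFNa and 25.2 CPM in the combination (22 UMIs from 75 cells). The combination lay below the other 4, and against Control Smad7 fell by 1.20 ± 0.28 in log2 units (edgeR, adjusted p = 0.0396), in a class where 5.4% of all genes were called. This call was lost without Control 11 (adjusted p = 0.122), in DESeq2 (0.305), with stricter gates (0.0790) and with doublets kept (0.126), and with graph clusters in place of gates the difference was -0.64 (adjusted p = 0.365). The other pair, Tgfbr1 in cDC1, compared 1 library with 1 and so has no replicate check. It read 59.3 CPM in Control 11, 34.3 and 51.9 CPM in IFNa and 20.1 CPM in the combination, with no value for Control 25, which had too few cells. The fitted difference from Control was -1.46 ± 0.41, with the spread taken from the 2 IFNa libraries and from the other genes (adjusted p = 0.0324, where 3.48% of the genes of the class were called). The adjusted p was 0.0876 with graph clusters, 0.101 with doublets kept and 0.0527 with at least 2000 UMIs per cell.

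Against the IFNa livers 1 of 88 pairs was called, where 0.492% of all pairs were. Tgfbr1 in cDC2, at 34.8 CPM in the combination from 27 UMIs, was below both IFNa livers (91.5 and 110 CPM) and both Control livers (59.5 and 60.5 CPM). It fell by 1.499 ± 0.28 against IFNa (adjusted p = 0.0199, where 1.18% of the genes of the class were called), and the call was lost without IFNa 23 (adjusted p = 0.103) and in DESeq2 (adjusted p = 0.259). Over the 88 pairs the median difference was -0.48 against Control and -0.48 against IFNa, where the medians over all pairs were -0.03 and -0.02. The comparisons share the combination library.

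Tgfb1 in myeloid cells shows the size of differences that did not pass. In classical monocytes it read 831 and 1022 CPM in Control, 870 and 948 CPM in IFNa and 623 CPM in the combination, and in macrophages 719 and 1068, 820 and 651, and 502 CPM. In classical monocytes Tgfbr1 read 59.8 CPM in the combination and 109 to 178 CPM elsewhere, Smad7 20.8 against 37.0 to 54.1 CPM, and Ski 27.9 against 43.9 to 64.5 CPM, with no overlap for any of these genes.

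Depth, mitochondrial share and stray markers were read beside these values. The median depth of the combination's cells was 10198 UMIs in classical monocytes (8819 to 15206 elsewhere) and 12417 UMIs in macrophages (10770 to 12805 elsewhere), and the median mitochondrial share was 0.848% and 0.599% (0.847% to 1.27% and 0.623% to 1.38% elsewhere), the latter the lowest of the 5. The 9 T cell markers summed to 53.9 CPM in its classical monocytes against 1.82 to 33.9 CPM elsewhere, and to 26.3 CPM in its macrophages against 3.44 to 39.4 CPM. Their part in the differences was not tested. The combination gave 75 macrophages and 14 neutrophils, against 44 to 459 and 22 to 202 elsewhere, and the 9 markers summed to 211 CPM in those neutrophils (8.59 to 35.3 CPM elsewhere).

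The other genes of the pathway, 55 in 6 lists by role, were tested in the same fits. In IFNa against Control 22 of 525 pairs were called, 17 higher and 5 lower. In the combination against Control 32 of 494 were called, 10 higher and 22 lower, and against IFNa 9 of 494, 2 higher and 7 lower. The shares over all pairs were the 2.17%, 2.97% and 0.492% given above, and no test compared these counts with those of the 8 genes. By direction, the calls over all pairs were 2147 higher and 911 lower for IFNa against Control. They were 2743 higher and 1159 lower for the combination against Control, and 429 higher and 218 lower against IFNa. Of the calls against Control, 4 of the 22 for IFNa and 6 of the 32 for the combination came from cDC1, erythroid and gamma-delta T cells, where Control was 1 library. By role the counts are again pairs of a gene and a class, so the same gene can count in several classes. IFNa against Control called 7 of 128 target pairs higher and 2 lower. It called 3 of 97 activation pairs in each direction and 3 of 34 receptor pairs higher. The combination against Control called 4 of 119 target pairs higher and 13 lower, and 1 of 92 activation pairs higher and 7 lower. The lower target calls of the combination against Control were for Id1, Id2, Id3, Itgae, Runx1, Rgs16 and Cdkn1a. The higher ones were for Cdkn1a and Id2. Whether TGF-beta raises or lowers each target in these cells was not tested, so these counts measure no pathway output. In classical monocytes IFNa raised 9 of 44 pathway genes, where 10.1% of all genes in that class were called and 6.65% were called higher. Without Control 11, 8 of the 9 calls were lost, and without Control 25, IFNa 18 or IFNa 23 the losses were 5, 1 and 4.

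Plau, Pmepa1 and Mmp14 had the largest called rises at 5 CPM or more in monocytes of the IFNa livers. Plau, encoding the protease urokinase, read 5.19 and 12.4 CPM in Control, 19.9 and 47.4 CPM in IFNa and 17.7 CPM in the combination. Its rise of 2.24 ± 0.51 in IFNa (adjusted p = 0.0331) was lost without Control 11 (adjusted p = 0.332), Control 25 (0.0647) or IFNa 23 (0.0839). Pmepa1, a feedback inhibitor that the pathway induces, read 5.12 and 11.7 CPM in Control, 26.5 and 35.1 CPM in IFNa and 7.56 CPM in the combination, and rose by 2.18 ± 0.34 in IFNa (adjusted p = 0.00851), a call lost without Control 11 (adjusted p = 0.0988).

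Mmp14, encoding a membrane metalloprotease that can release latent TGF-beta, read 35.2 and 38.3 CPM in Control, 91.8 and 178 CPM in IFNa and 169 CPM in the combination. It rose by 1.92 ± 0.30 in IFNa (adjusted p = 0.00814) and by 2.33 ± 0.34 in the combination (adjusted p = 0.00524), and without Control 11 neither call held (adjusted p = 0.145 and 0.0973). The IFNa call was also lost without Control 25 (adjusted p = 0.0660).

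In macrophages Plau and Pmepa1 separated the IFNa livers from the combination. Plau read 57.5 and 61.9 CPM in Control, 182 and 249 CPM in IFNa and 36.6 CPM in the combination. It rose by 1.79 ± 0.18 in IFNa (adjusted p = 0.000900) and fell by 2.45 ± 0.27 in the combination against IFNa (adjusted p = 0.00405). Pmepa1 read 119 and 148 CPM in Control, 211 and 232 CPM in IFNa and 58.4 CPM in the combination, where it fell by 1.81 ± 0.24 against IFNa (adjusted p = 0.00899). For both genes the combination lay below all 4 other libraries. These calls held without each of the libraries that could be left out.

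**Figure D5:**
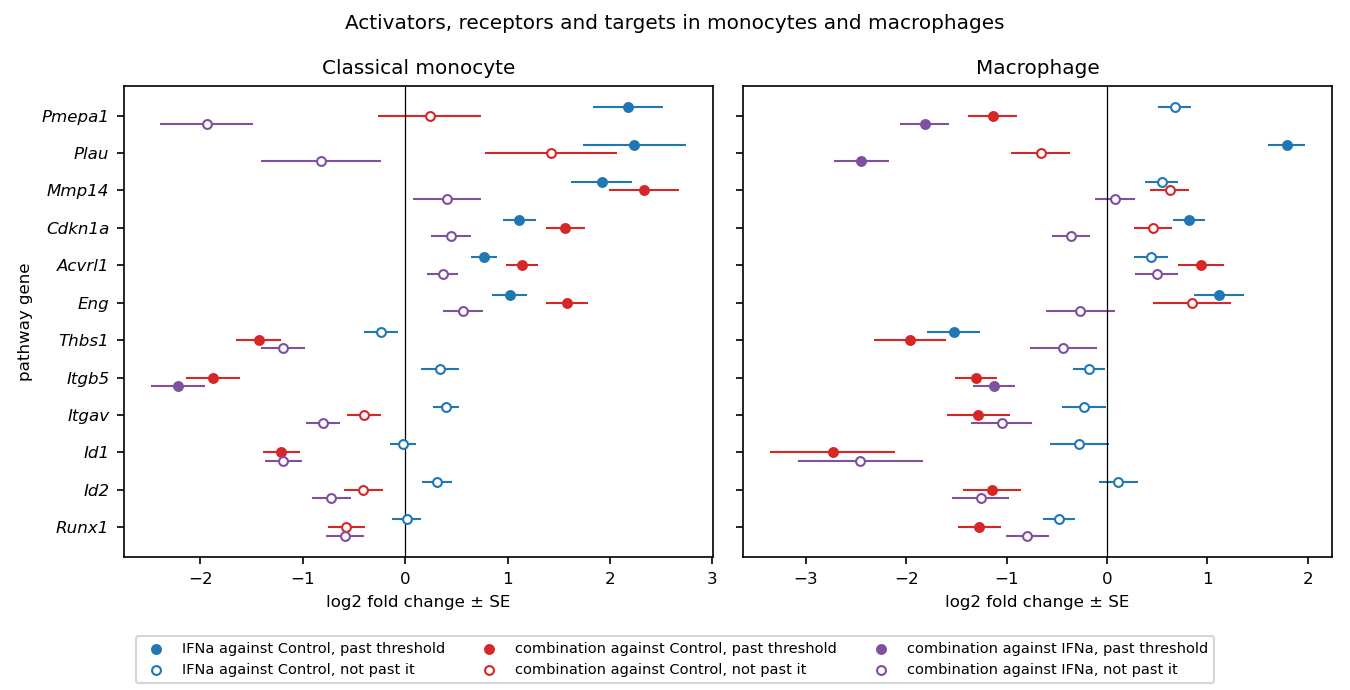
Log2 fold changes with SE of 12 pathway genes in classical monocytes (left) and macrophages (right) for the 3 comparisons; filled points passed an adjusted p of 0.05. The genes were picked for the figure after their values were seen. In macrophages Plau lies at 1.79 for IFNa against Control and at -2.45 for the combination against IFNa.

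Thbs1 and Itgb5, linked to release of the latent ligand, fell in the combination liver's macrophages. Thbs1, encoding thrombospondin 1, which can activate latent TGF-beta, read 922 and 1087 CPM in Control macrophages, 475 and 265 CPM in IFNa and 254 CPM in the combination. It fell by 1.53 ± 0.26 in IFNa (adjusted p = 0.0123) and by 1.96 ± 0.36 in the combination (adjusted p = 0.0114) against Control. In cDC1 it read 34.3 CPM in Control 11 alone. It was at 0 in IFNa 18, at 1.77 CPM from 3 UMIs in IFNa 23 and at 0 in the combination, at least 9.68-fold lower than Control 11 (floor of 3 counts in the combination), and the few cDC1 of Control 25 held 0 UMIs. Itgb5, encoding an integrin beta chain that pairs with alphav, read 432 and 401 CPM in Control macrophages, 381 and 403 CPM in IFNa and 166 CPM in the combination, a fall of 1.31 ± 0.21 against Control (adjusted p = 0.00608).

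In classical monocytes Itgb5 read 152 and 123 CPM in Control, 146 and 196 CPM in IFNa and 34.7 CPM in the combination, and fell by 1.88 ± 0.26 against Control (adjusted p = 0.00432). Ltbp1, which encodes a carrier of latent TGF-beta in matrix, was at 0 in Control macrophages and at 13.7 CPM from 12 UMIs in the combination, at least 19.2-fold higher (floor of 3 counts over both Control libraries), and the call was lost without Control 11 (adjusted p = 0.114). Eng, encoding the accessory receptor endoglin, rose by 1.58 ± 0.20 in classical monocytes of the combination (adjusted p = 0.00293), a call lost without Control 11 (adjusted p = 0.0521). Acvrl1, encoding a type I receptor, read 61.7 and 43.0 CPM in Control macrophages and 105 CPM in the combination. It rose by 0.93 ± 0.23 (adjusted p = 0.0460). The rises of Ltbp1, Eng and Acvrl1 are against Control. Eng in classical monocytes was also called higher in IFNa against Control, by 0.738 to 1.12 over the settings tried. That call did not hold in every setting. Against IFNa, no pathway gene was called higher in macrophages or classical monocytes of the combination. These calls therefore do not set the combination apart from IFNa alone.

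Id2 in cDC2 and Itgae in cDC1 and cDC2 fell in the combination liver. Id2, encoding a regulator needed for cDC1 and lymphoid fates, read 274 and 187 CPM in Control cDC2, 210 and 209 CPM in IFNa and 39.9 CPM in the combination, a fall of 2.54 ± 0.33 against Control (adjusted p = 0.000239) and of 2.35 ± 0.33 against IFNa (adjusted p = 0.00322). Id2 was also called lower against Control in macrophages, a call lost without Control 11, and in non-classical monocytes. Macrophages read 163 and 124 CPM in Control, 191 and 147 CPM in IFNa and 65.2 CPM in the combination. Non-classical monocytes read 149 and 122, 87.3 and 113, and 43.2 CPM in that order. Regulatory T cells read 498 and 408, 422 and 435, and 245 CPM, with no test. Id2 was called higher in erythroid cells against Control and in B cells against IFNa. Itgae in cDC1 read 429 CPM in Control 11, 322 and 259 CPM in IFNa and 104 CPM in the combination. It fell by 1.46 ± 0.24 against IFNa (adjusted p = 0.000201), and the fitted difference from Control, -1.94 ± 0.26, set 1 library against 1 and has no replicate check. Itgae in cDC2 read 47.2 and 99.7 CPM in Control, 80.8 and 25.7 CPM in IFNa and 2.58 CPM in the combination from 2 UMIs, and fell against Control as well (adjusted p = 0.0178).

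Id1, a target of the related BMP pathway, read 52.0 and 60.2 CPM in Control macrophages, 64.4 and 34.8 CPM in IFNa and 8.01 CPM from 7 UMIs in the combination, a fall of 2.73 ± 0.63 (adjusted p = 0.0345). Id3 in cDC2 read 310 and 313 CPM in Control, 155 and 95.1 CPM in IFNa and 63.1 CPM in the combination, and fell by 1.34 ± 0.22 in IFNa (adjusted p = 0.00332), a call lost without IFNa 23 (adjusted p = 0.112). Cdkn1a, encoding the cell cycle inhibitor p21, differed in direction between classes. In neutrophils it read 495 and 521 CPM in Control, 653 and 382 CPM in IFNa and 21.1 CPM from 2 UMIs in the combination. The fitted differences of the combination there were -4.26 ± 0.82 against Control and -4.33 ± 0.82 against IFNa. In cDC2 Cdkn1a moved the other way from Id3. It read 240 and 137 CPM in Control, 486 and 555 CPM in IFNa and 658 CPM in the combination. Its rises of 1.39 ± 0.23 (adjusted p = 0.00387) and 1.77 ± 0.27 (adjusted p = 0.00102) held without each library in turn.

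In the 5 lymphoid classes other than regulatory T cells, 0 of 30 pairs of the 8 genes were called by edgeR in each comparison, and 0 by DESeq2. At an unadjusted p under 0.05 in edgeR there were 10 for IFNa against Control, 7 for the combination against Control and 6 against IFNa. Over all genes, IFNa against Control had 1041 of 11219 in B, 506 of 9182 in CD4 T and 482 of 10985 in CD8 T cells. It had 557 of 10142 in NK and ILC1 and 476 of 3594 in gamma-delta T cells. In the same order the combination had 1458, 567, 551, 543 and 371 against Control. Against IFNa it had 835, 222, 312, 292 and 242. Of 151 pairs of other pathway genes 1 was called in each comparison, where 1.01%, 1.06% and 0.202% of all genes of these classes were. For the 8 genes in B, CD4 T, CD8 T and NK and ILC1 cells, the combination was below all 4 other libraries in 8 of 26 pairs and above in 0, where 15.1% and 17.4% of all genes were; with TMM scaling 11 of 26 were below, where 15.4% of all genes were below and 16.8% above. Smad7 was lowest in the combination in 3 of these 4 classes, with 104 CPM in CD4 T cells against 118 to 205 CPM elsewhere. Itgb8 in CD4 T cells read 54.6 and 58.5 CPM in Control, 46.6 and 36.3 CPM in IFNa and 27.7 CPM in the combination, the lowest. The called pathway genes were Rgs16, Itgb3 and Id2. Rgs16 in NK and ILC1 cells fell by 2.06 ± 0.33 in the combination against Control (adjusted p = 0.00654), a call lost without IFNa 23 (adjusted p = 0.367). Itgb3, encoding an integrin beta chain, read 31.0 and 19.7 CPM in B cells of Control, 11.6 and 8.72 CPM in IFNa and 16.4 CPM in the combination, and fell by 1.32 ± 0.26 in IFNa (adjusted p = 0.0454). That call was lost without Control 11 (adjusted p = 0.335), IFNa 23 (0.142) or the combination (0.0583). Id2 in B cells read 8.77 and 12.8 CPM in Control, 2.94 and 3.49 CPM in IFNa and 16.2 CPM in the combination, a rise of 2.36 ± 0.37 against IFNa (adjusted p = 0.0438) that was lost without IFNa 18 (adjusted p = 0.113).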

How the data were processed

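Single-cell gene expression and T cell receptor sequences were measured in 5 livers. The authors deposited raw UMI counts per gene and cell barcode; Cell Ranger 7.0.1 and mm10 are named per the submitters' processing notes, and filters before deposit are not given in the sources used here. Kept cells (27771) had 200 genes or more and a mitochondrial UMI share of 15% or less. Doublets were scored against simulated pairs, and the 6 to 728 highest scores of each library were removed, a number set by its cell count, which left 26229. A cell took a class when its marker score was at least 0.4 and 0.1 above every other lineage, with at least 3 markers detected.

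Counts were summed per library and class, since cells are not replicates, and classes with at least 10 cells in at least 4 libraries were tested (R 4.3.3, edgeR 4.0.16: filterByExpr, TMM, quasi-likelihood F test, Benjamini-Hochberg over all genes of a class, threshold 0.05). All 5 libraries shared 1 fit per class. The IFNa effect was compared between classes in a fit with the library as a block. Folds are log2, with the SE taken from the F statistic. The members and lists were chosen with earlier results of these data known. Besides the 8 genes, the text names up to 3 called pathway genes each way per class and comparison by largest fold at 5 CPM or more, up to 6 of the regulatory T cell list, and per member the 3 genes with the highest r of mean log2 CPM over classes. Exceptions are named as such.

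On simulated counts with known 4-fold changes, the fit for the combination against Control recovered 68.9% of changed genes in macrophages (10249 genes) and 6.03% of 2-fold changes (10262 genes). Alternatives were DESeq2 1.42.0, RLE size factors, no filter, other cell definitions, doublets kept, cell minimums and leaving out each library.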

Additional observations from a re-analysis of the deposited data

Results flagged for a closer look

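Lrrc32 was also read in cells that no test used, the Foxp3-positive T cells that carried a Cd8a or Cd8b1 UMI and were kept out of the regulatory T cell gate. They entered the values above under wider definitions, such as a Foxp3 UMI as the sole requirement. In the combination library 136 such cells gave 81.6 CPM of Lrrc32 from 97 UMIs (95% exact Poisson interval 66.2 to 99.6 CPM). The Control libraries gave 21.8 CPM from 9 UMIs and 47.3 CPM from 2 UMIs, and the IFNa libraries 12.2 CPM from 1 UMI and 18.9 CPM from 13 UMIs. The signal in these cells was above the Control level, although the interval of Control 25, with 4 cells, ran from 5.73 to 171 CPM. Whether they are single cells was not tested beyond the doublet score.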

How the results depend on the processing

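No paired analysis was possible because the livers' numbers are not shared between the treatment groups. For IFNa against Control the 0 calls among the 8 genes became 1 with stricter gates and 7 with no filter on low counts, and 0 to 4 without 1 library; the 22 calls among other pathway genes became 13 with graph clusters, 11 in DESeq2 and 44 with no filter. For the combination against Control the 2 calls became 0 with graph clusters, 4 with stricter gates, 1 with doublets kept, 1 in DESeq2, 11 with no filter, 1 with at least 2000 UMIs per cell (an alternative added after seeing the data) and 4 to 6 without 1 library. The 32 calls among other pathway genes became 21 with graph clusters and 59 with no filter. Against IFNa the 1 call became 0 with graph clusters, 8 with no filter and 0 to 7 without 1 library, and the 9 calls among other genes became 34 with no filter and 14 to 18 without 1 library. The 0 calls for a difference of the IFNa effect between classes became 6 with no filter and 0 to 1 without 1 library. The pairs tested and the share of all genes called can also change with the setting, and they are not given here. These counts therefore describe the settings and are no result about these genes. The log2 ratio of Lrrc32 in regulatory T cells, 1.85 in the combination over the mean of the others, was 2.19 in the graph cluster and 1.29 as a thinned share; it was 1.43 without cycling cells and 2.04 in the cluster within the gate, both added after seeing the data, and 1.78 to 1.89 without 1 library. With doublets kept, Id2 in erythroid cells turned to -0.21 for IFNa and -1.48 for the combination against Control. Leaving out 1 library moved the IFNa difference of Lrrc32 in regulatory T cells between -0.0085 (without Control 11) and 0.31. The cause of these changes was not tested. Of the values for single genes 674 kept their side of the threshold, 124 lost it, 4 gained it and 3 changed sign. Without the combination library its comparisons have no value, and 1 library is the limit on all of them; depth limits Lrrc32 in Control 25, where 13 UMIs were counted in 24 cells.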
